A study of Mus musculus with 2 samples.

Results

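AMP-activated protein kinase (AMPK) and the LKB1 kinase that switches it on were followed through 9 genes in sorted mouse intestinal stem cells. The genes were the 6 AMPK subunit genes Prkaa1, Prkaa2, Prkab1, Prkab2, Prkag1 and Prkag2, and the 3 LKB1 complex genes Stk11, Strada and Cab39. They were taken by symbol from a list of names, out of 45706 gene IDs in the files, and all 9 were present. The fasted group was 1 library of GFP-high intestinal stem cells from fasted Lgr5-EGFP-IRES-creERT2 mice, 4 months of age. The fed group was 1 library of the same sorted population from mice of the same strain and age with free access to standard chow. In this strain the Lgr5 locus drives the green fluorescent reporter together with a tamoxifen-dependent Cre, and both groups carry it. The length of the fast and how many mice went into each library are not stated in the labels. With 1 library per group there is no replicate spread and no test, so each difference describes these 2 libraries.

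AMPK is the energy sensor of the cell, an assembly of a catalytic α, a scaffolding β and a nucleotide-binding γ subunit. When AMP or ADP rises relative to ATP, binding to γ exposes AMPK to LKB1, which phosphorylates a threonine in the activation loop of α. LKB1, the product of Stk11, is active only when bound to the pseudokinase STRAD and the scaffold MO25, the products of Strada and Cab39. Activated AMPK slows fat, sterol and protein synthesis and promotes fatty acid oxidation and autophagy. In the intestine LKB1 is best known in humans as the tumour suppressor lost in Peutz-Jeghers polyposis. AMPK and LKB1 are regulated mainly by nucleotides, phosphorylation and complex assembly, none of which an RNA count records.

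The fasted library held 5020056 counts over 17067 genes and the fed library 6985316 counts over 17970 genes. A single read was therefore worth 0.199 counts per 1000000 counts (CPM) in the fasted library and 0.143 CPM in the fed library. A gene was called measured with a mean of at least 1 CPM and at least 20 reads in both libraries together, which 12026 genes reached. Log2 ratios are fasted over fed after scaling by size factors, with exact 95% intervals that cover counting error only. A gene was called higher or lower when the ratio was at least 2-fold and the interval excluded a ratio of 1. Levels of different genes are given as transcripts per 1000000 transcripts (TPM), which divide each count by the merged exon length of the gene. On the TPM scale the log2 difference between the libraries is offset by -0.10 from the size-factor scale, so differences between libraries are read from the log2 ratios.

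The sort was checked against markers. Stem cell markers were abundant in both libraries, with a summed level of 12150 TPM in the fasted and 20540 TPM in the fed library. Most of that sum was Olfm4, at 8992 TPM in the fasted and 16475 TPM in the fed library. Lgr5 was at 107 TPM in the fasted and 160 TPM in the fed library. Of 9 stromal and muscle markers 0 were measured, and their summed level was 1.23 TPM in the fasted and 1.62 TPM in the fed library. The pan-leukocyte gene Ptprc had 0 reads in the fasted and 1 read in the fed library. Absorptive enterocyte markers differed between the libraries. Of 18 listed and measured, 12 were higher and 0 lower, with a summed level of 9948 TPM in the fasted and 3110 TPM in the fed library. Fabp1 alone held 4702 TPM of the fasted and 183 TPM of the fed sum. The median log2 ratio of these enterocyte markers was 1.09. Goblet cell markers summed to 2603 TPM in the fasted and 1355 TPM in the fed library, and 3 of 8 were called, all higher. Stem cell markers had a log2 ratio below 0 in 17 of 18 cases, and 1 of them was called lower. Among all measured genes 2.51% were called higher and 1.91% lower, and 47.9% had a log2 ratio above 0. Paneth cell markers summed to 3989 TPM in the fasted and 4999 TPM in the fed library, with 1 of 8 higher and 0 lower. Enteroendocrine markers (40.8 TPM fasted, 43.5 TPM fed), tuft cell markers (7.48 TPM fasted, 11.7 TPM fed) and immune markers (50.1 TPM fasted, 75.5 TPM fed) were low, and of these only the macrophage gene Cd68 was called, as lower. In bulk RNA, fewer cells of a type and less RNA per cell cannot be told apart, and the part of these markers in the values below was not tested.

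Both α genes, both β genes and both γ genes are paralogs, so each isoform comparison rests on reads that can tell the copies apart. The longest stretch shared exactly by each pair of coding sequences is shown in capitals, with up to 15 flanking bases in lower case, from the coding strand of the longest coding transcripts of GENCODE M21 (GRCm38):
Prkaa1: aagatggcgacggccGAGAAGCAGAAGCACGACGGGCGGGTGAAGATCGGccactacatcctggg
Prkaa2: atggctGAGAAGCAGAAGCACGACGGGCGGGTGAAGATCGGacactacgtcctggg
Prkab1: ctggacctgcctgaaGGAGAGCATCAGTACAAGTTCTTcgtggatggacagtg
Prkab2: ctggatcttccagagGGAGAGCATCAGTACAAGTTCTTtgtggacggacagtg
Prkag1: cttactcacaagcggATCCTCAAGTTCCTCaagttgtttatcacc
Prkag2: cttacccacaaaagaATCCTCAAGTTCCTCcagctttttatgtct

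The shared run was 35 bases for the α pair, 23 bases for the β pair and 15 bases for the γ pair. Coding sequences were 71.0% identical for α, 73.4% for β and 70.9% for γ over the aligned bases. No stretch of 50 bases was shared within any of the 3 pairs, so a read of that length can be assigned to a single copy. The activation loop shows the same thing at the site that LKB1 phosphorylates. The bases that differ between the α genes are in capitals:
Prkaa1: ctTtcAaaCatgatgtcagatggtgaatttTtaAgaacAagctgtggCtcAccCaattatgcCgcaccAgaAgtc
Prkaa2: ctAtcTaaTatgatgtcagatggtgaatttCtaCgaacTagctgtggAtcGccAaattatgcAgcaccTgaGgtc

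Over these 75 bases the paralogs differed at 12, and 0 of the 25 codons encoded a different amino acid. The target threonine is the codon that begins at base 37 of each stretch, codon 183 of the Prkaa1 and codon 172 of the Prkaa2 coding sequence. The loop that LKB1 recognises is thus the same in protein, while a read of 50 bases could still tell the α genes apart. The read length is not stated in the labels.

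Transcripts of Prkaa1, Prkaa2, Prkab1, Prkab2 and Cab39 shared no 50-base stretch with any other annotated gene. The γ genes did. Prkag1 shares 43.7% of its exon bases with the antisense gene B130046B21Rik, which had 8 reads in the fasted and 6 in the fed library. Prkag2 shares 14.5% with the antisense genes Prkag2os1 and Prkag2os2. Stk11 overlaps the antisense gene Cbarp over 5.07% of its exon bases, and Strada overlaps Ccdc47 and Gm25556 over 5.42%. The labels do not state whether counting used strand, and reads in these bases are of uncertain origin.

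All 9 genes were measured, and in the fasted library 0 of them were called in either direction. Among all 12026 measured genes 4.42% were called, 2.51% higher and 1.91% lower. At a threshold of 1.5-fold the count among the 9 was again 0, where 5.11% of measured genes were called higher and 5.05% lower. The log2 ratios of the 9 genes ran from -0.43 for Strada to 0.22 for Prkaa2, that is 0.743-fold to 1.16-fold. The outermost interval bounds were 0.560-fold and 1.38-fold, so counting error alone would not hide a 2-fold difference in any of them. The median of the 9 was -0.13, beside -0.02 over all measured genes. Of the 9 ratios 3 were positive and 6 negative, where 47.9% of all measured genes had a positive ratio. Their median absolute log2 ratio was 0.17, and that of all measured genes was 0.21. The interval included 0 for 6 of the 9 genes, and for 64.1% of all measured genes.

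**Figure D1:**
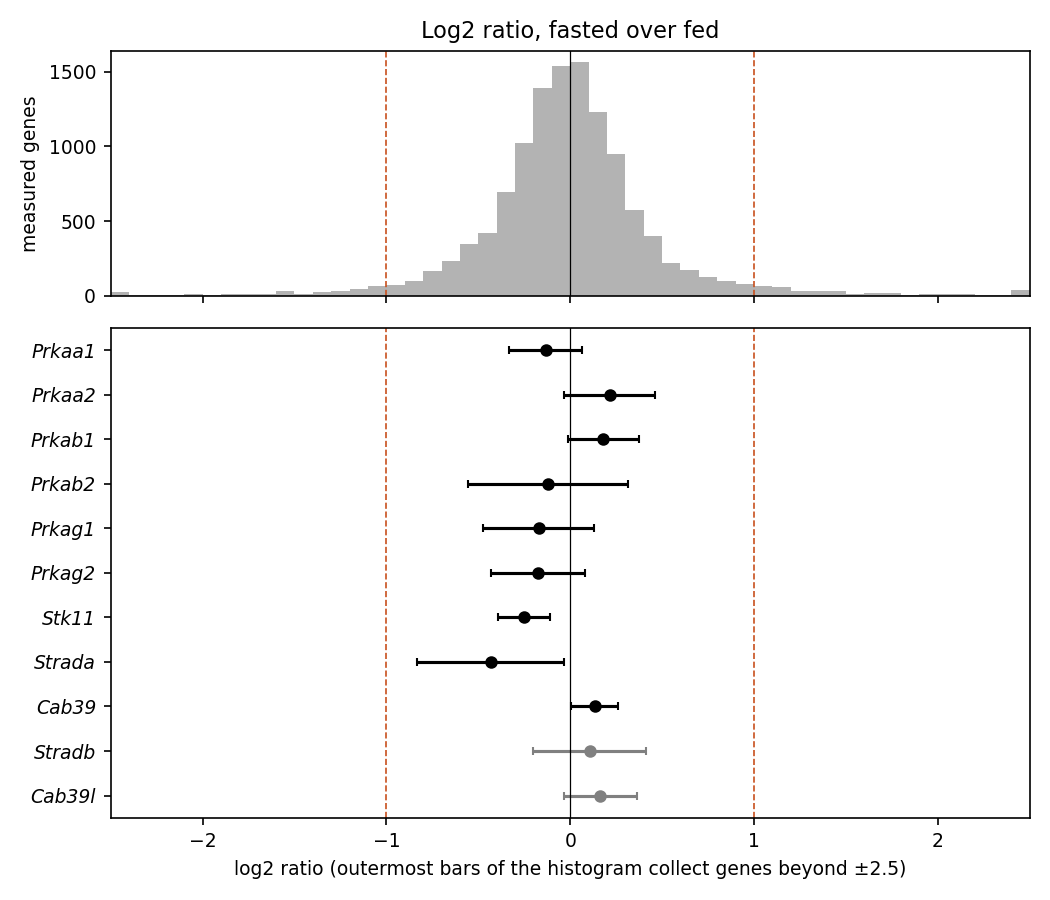
Log2 ratio of fasted over fed. The upper panel counts the 12026 measured genes per bin of log2 ratio, and the lower panel gives each AMPK and LKB1 complex gene (black) and the measured paralogs Stradb and Cab39l (grey) with its 95% counting interval. Dashed lines mark 2-fold, and all points and intervals lie between them.

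Most RNA of the catalytic subunit came from Prkaa1. Prkaa1, which encodes α1, the widely expressed catalytic subunit (chromosome 15, 5143861 to 5181899, plus strand), had 344 reads (47.5 TPM) in the fasted and 533 reads (55.7 TPM) in the fed library. Its log2 ratio was -0.13 (-0.33 to 0.06), and 65.7% of measured genes differed by at least as much. Prkaa2, which encodes α2, the form prominent in muscle (chromosome 4, 105029874 to 105109890, minus strand), had 250 reads (20.2 TPM) in the fasted and 304 reads (18.5 TPM) in the fed library. Its log2 ratio was 0.22 (-0.03 to 0.46), the highest of the 9 genes. Both intervals include 0, so neither α gene differed beyond counting error. Per length, Prkaa1 made up 70.2% of α transcripts in the fasted library (66.6% to 73.6%) and 75.0% in the fed library (72.2% to 77.6%). Prkaa1 was therefore 2.36-fold above Prkaa2 in the fasted and 3.0-fold above it in the fed library, while by coding length it was 1.36-fold above in the fasted and 1.73-fold above in the fed library. The ratio of Prkaa1 to Prkaa2 was 0.785 times the fed value in the fasted library, a log2 difference of -0.35 (-0.67 to -0.03). This interval lies just below 0 but covers counting error only. Across the 7574 measured genes in the same range of depth, log2 ratios had a robust SD of 0.264, which corresponds to 0.373 for the difference of a pair of unrelated genes. The shift between the α isoforms was within that spread.

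Most β RNA came from Prkab1, the gene of β1, in both libraries. The β subunit carries a glycogen-binding module and joins α to γ. Prkab1 (chromosome 5, 116013586 to 116024508, minus strand) had 399 reads (83.6 TPM) in the fasted and 497 reads (78.8 TPM) in the fed library, with a log2 ratio of 0.18 (-0.01 to 0.37). Prkab2 (chromosome 3, 97658193 to 97673812, plus strand) had 75 reads (9.46 TPM) in the fasted and 115 reads (11.0 TPM) in the fed library, with a log2 ratio of -0.12 (-0.56 to 0.31). Neither differed beyond counting error, and the interval of Prkab2 is the wider because it had the fewest reads of the 9 genes. Prkab1 made up 89.8% of β transcripts in the fasted library (87.3% to 92.0%) and 87.8% in the fed library (85.4% to 89.9%). This was the most one-sided of the 3 subunit classes under each choice of gene length that was tried. The log2 difference in the Prkab1 to Prkab2 ratio was 0.30 (-0.18 to 0.78), which includes 0.

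RNA of the nucleotide-sensing subunit came from both γ genes. Prkag1 led under each gene length tried, by an amount that depended on the length, but not in counts without length. The γ subunits bind AMP, ADP and ATP through paired CBS domains. Prkag1 (chromosome 15, 98812797 to 98831521, minus strand) had 151 reads (44.6 TPM) in the fasted and 240 reads (53.6 TPM) in the fed library. Prkag2, mutated in an inherited heart disease with glycogen storage in humans (chromosome 5, 24862744 to 25100642, minus strand), had 206 reads (20.4 TPM) in the fasted and 328 reads (24.6 TPM) in the fed library. The log2 ratios were -0.17 for both genes, with intervals of -0.47 to 0.13 for Prkag1 and -0.43 to 0.08 for Prkag2. Prkag1 made up 68.6% of γ transcripts in each library, 63.7% to 73.0% in the fasted and 64.8% to 72.1% in the fed. The log2 difference in the Prkag1 to Prkag2 ratio was 0.0026 (-0.40 to 0.40). Prkag2 had more reads than Prkag1, and Prkag1 leads only once length is taken into account. With exon bases shared with other genes left out of the length, but all reads kept, the Prkag1 share was 76.8% in both libraries. That value is therefore not a share of the reads outside those bases. Without any length the Prkag1 share was 42.3% in both. Counts per gene do not separate the 10 annotated transcripts of Prkag2, which include long and short forms. The muscle isoform gene Prkag3 had 2 reads in each library, below the floor of 3 reads, so no ratio is given.

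**Figure D2:**
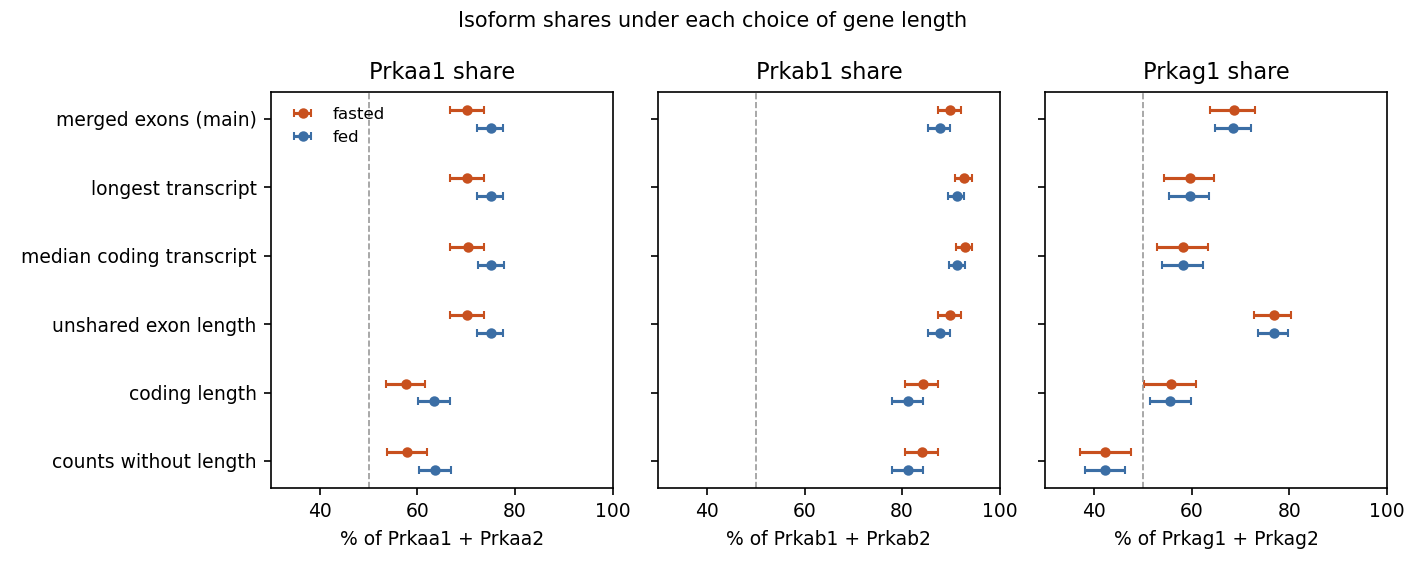
Share of the leading isoform in each subunit class, in percent, under 6 choices of gene length, with 95% counting intervals for the fasted and the fed library. Prkaa1 and Prkab1 lie above 50% (dashed line) under every choice shown, while Prkag1 lies at 42.3% in both libraries when counts are not divided by length.

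Summed over isoforms per merged exon length, the 3 subunit classes lay between 65.0 and 93.1 TPM. The α genes summed to 67.6 TPM in the fasted and 74.2 TPM in the fed library. The β genes summed to 93.1 TPM in the fasted and 89.8 TPM in the fed library. The γ genes summed to 65.0 TPM in the fasted and 78.2 TPM in the fed library. On the size-factor scale the log2 ratio of these sums was -0.04 for α, 0.15 for β and -0.17 for γ. Both the order and the distance of the classes depended on the gene length used. With the median coding transcript length γ was the highest, at 98.4 TPM in the fasted and 117 TPM in the fed library, and α the lowest, at 32.6 TPM in the fasted and 35.4 TPM in the fed library. Without length α was the highest, so no class can be called limiting from these counts.

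**Figure D3:**
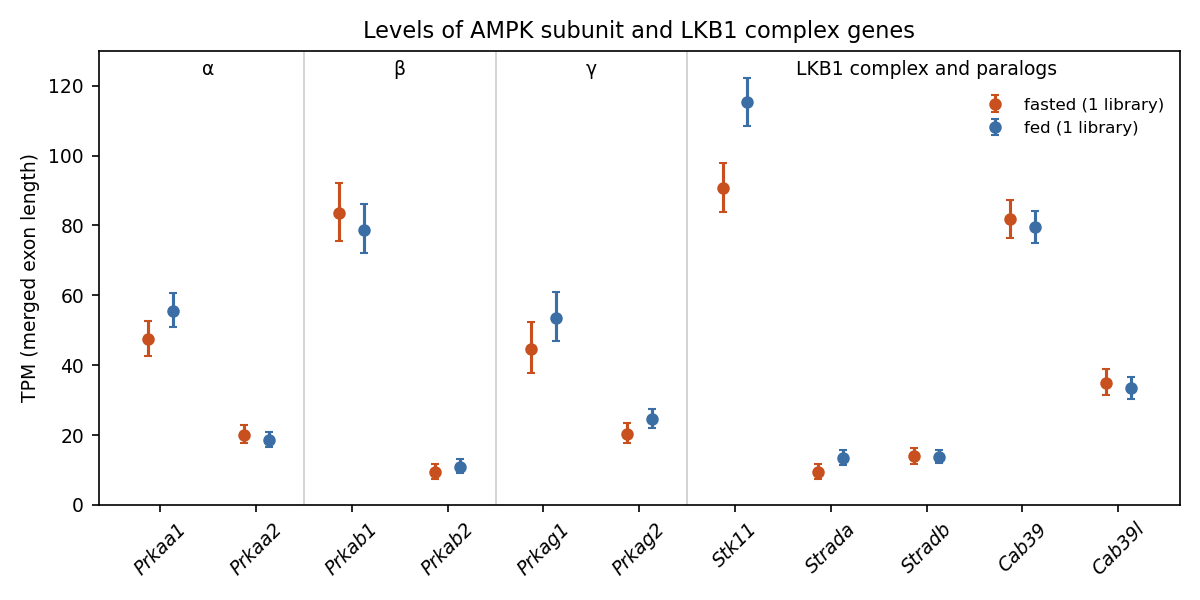
Level of each AMPK subunit and LKB1 complex gene, and of the paralogs Stradb and Cab39l, in TPM in the fasted and fed library (1 library each), with 95% Poisson intervals. Stk11, Prkab1 and Cab39 are the highest, and Prkab2 and Strada the lowest, in both libraries.

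The 3 LKB1 complex genes were at unequal levels. Stk11, the gene of the kinase LKB1 (chromosome 10, 80115803 to 80130682, plus strand), had 646 reads (90.6 TPM) in the fasted and 1086 reads (115 TPM) in the fed library. Per merged exon length it had the highest level of the 9 genes in both, above 83.3% of measured genes in the fasted and 87.2% in the fed library. Its log2 ratio was -0.25 (-0.39 to -0.11), 0.840-fold, an interval below 0 under each scaling tried. A difference of at least that size was found in 43.0% of measured genes. Strada, the gene of the pseudokinase that activates LKB1 allosterically (chromosome 11, 106163330 to 106202168, minus strand), had 81 reads (9.35 TPM) in the fasted and 154 reads (13.4 TPM) in the fed library. Its log2 ratio of -0.43 (-0.84 to -0.03) was the lowest of the 9, and 23.0% of measured genes differed by at least as much. After correction for exon length the Strada interval included 0. Cab39, the gene of the scaffold MO25α that holds the complex together (chromosome 1, 85793441 to 85851576, plus strand), had 900 reads (81.7 TPM) in the fasted and 1158 reads (79.5 TPM) in the fed library. Its log2 ratio was 0.13 (0.0069 to 0.26), and the interval included 0 under scaling to total counts. None of the 3 reached 2-fold.

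Strada was thus the scarcest partner by RNA. Stk11 exceeded Strada 9.70-fold per length in the fasted library (7.69 to 12.4) and 8.57-fold in the fed library (7.24 to 10.2). Cab39 exceeded Strada 8.74-fold in the fasted (6.96 to 11.1) and 5.92-fold in the fed library (5.0 to 7.05), and by median coding transcript 13.6-fold in the fasted and 9.22-fold in the fed library. Stk11 and Cab39 were nearer to each other, with Stk11 at 1.11 times Cab39 in the fasted library (1.00 to 1.23) and 1.45 times in the fed library (1.33 to 1.58). Which of these came first depended on the length used, since Stk11 was at 0.746 times Cab39 in the fasted and 0.974 times in the fed library per longest transcript. The ratio of Stk11 to Cab39 differed between the libraries by -0.39 on the log2 scale (-0.58 to -0.19), and that of Cab39 to Strada by 0.56 (0.14 to 0.99). These 2 intervals exclude 0 for counting error, and the first value is close to the 0.373 given above for unrelated genes while the second is larger. The log2 difference in the Stk11 to Strada ratio was 0.18 (-0.25 to 0.61), which includes 0.

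Both partners have a second gene. Stradb, the paralog of Strada, had 157 reads (13.9 TPM) in the fasted and 206 reads (13.8 TPM) in the fed library, with a log2 ratio of 0.11 (-0.20 to 0.41). It made up 59.8% of STRAD transcripts in the fasted library (53.1% to 66.3%) and 50.7% in the fed library (45.3% to 56.0%). These shares depend on length: by median coding transcript they were 72.2% in the fasted and 64.2% in the fed library. With bases shared with other genes left out of the length, all reads kept, they were 58.5% fasted and 49.3% fed. The log2 difference in the Stradb to Strada ratio was 0.54 (0.03 to 1.05), an interval just above 0 that covers counting error only. This difference was larger than the SD of 0.373 given above for a pair of unrelated genes. Cab39l, the paralog of Cab39, had 373 reads (35.0 TPM) in the fasted and 470 reads (33.4 TPM) in the fed library, with a log2 ratio of 0.16 (-0.04 to 0.36). Cab39 made up 70.0% of MO25 transcripts in the fasted and 70.4% in the fed library, a log2 difference of -0.03 (-0.27 to 0.21) in the ratio of Cab39 to Cab39l. Neither paralog was called.

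Per merged exon length, the levels of the 9 genes fell into tiers. The tiers were not computed for other lengths, which moved several of the pair ratios above, and the intervals do not cover that choice. In the fasted library Stk11, Prkab1 and Cab39 lay between 81.7 and 90.6 TPM with overlapping intervals, followed by Prkaa1 and Prkag1 between 44.6 and 47.5 TPM. Prkag2 and Prkaa2 stood at 20.4 and 20.2 TPM, and Prkab2 and Strada at 9.46 and 9.35 TPM. Intervals of neighbours within each of these tiers overlapped. In the fed library Stk11 stood alone at 115 TPM, Prkag2 (22.0 to 27.4 TPM) lay above Prkaa2 (16.5 to 20.7 TPM), and Strada and Prkab2 again overlapped.

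LKB1 phosphorylates the activation loop of a wider kinase family, so AMPK was set beside the 12 AMPK-related kinases of the SIK, MARK, NUAK, BRSK and SNRK groups. Per merged exon length Prkaa1 ranked 2 of the 14 catalytic genes in both libraries, after Mark2, a polarity kinase, at 67.4 TPM in the fasted and 76.5 TPM in the fed library. Prkaa2 ranked 7 in both. Together the α genes took 25.1% of the summed TPM of these kinases in the fasted and 24.0% in the fed library. Nuak2 (32.3 TPM fasted, 37.2 TPM fed) and Sik3 (26.9 TPM fasted, 31.1 TPM fed) followed Prkaa1. These ranks and shares were computed for merged exon length only and can change with the length used. By reads without length, Sik3 (390 fasted, 596 fed) was above Prkaa1 (344 fasted, 533 fed). Of the 12 related kinases 10 were measured, 0 were called, and the log2 ratio was below 0 in 9, the median being -0.13. Among all measured genes 4.42% were called and 47.9% had a log2 ratio above 0. Mark2, Nuak2 and Sik3 had log2 ratios of -0.09 (-0.22 to 0.04), -0.11 (-0.38 to 0.16) and -0.11 (-0.30 to 0.07).

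**Figure D4:**
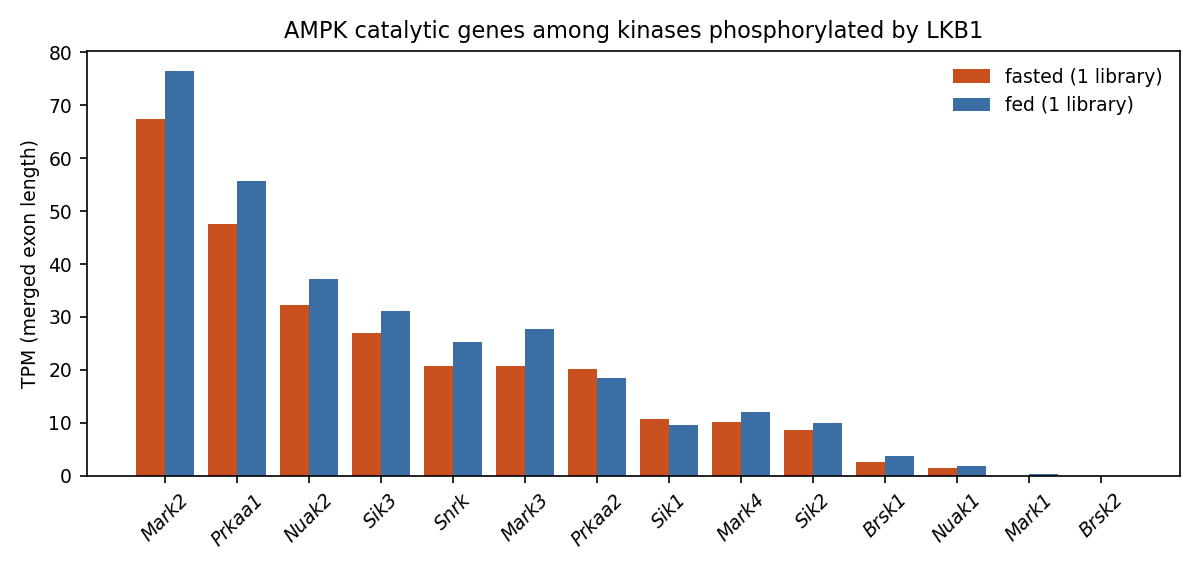
TPM of the 14 kinase genes whose products LKB1 phosphorylates, as bars for the fasted and the fed library, ordered by the fasted level. Mark2 leads at 67.4 TPM fasted and 76.5 TPM fed, Prkaa1 follows, and Brsk2 had no reads.

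Other inputs to AMPK were described from lists of kinases and regulators. Of 3 further kinases that can act on AMPK 0 were called. Map3k7, the gene of TAK1, was the most abundant, at 39.5 TPM in the fasted and 41.2 TPM in the fed library, with a log2 ratio of 0.04 (-0.15 to 0.23). Camkk2, the calcium-dependent AMPK kinase, had 7.0 TPM in the fasted and 8.06 TPM in the fed library (-0.11, -0.45 to 0.23). Camkk1 had 8 reads in the fasted and 18 in the fed library (-0.67, -2.08 to 0.60). Of 15 measured regulators of AMPK, such as the lysosomal Ragulator, folliculin and sestrin genes, 0 were called at 2-fold and the median log2 ratio was 0.03. The sestrin gene Sesn3, named after its values were seen, had the largest difference, with 108 reads in the fasted and 271 in the fed library, a log2 ratio of -0.83 (-1.16 to -0.50). The Ragulator genes Lamtor2 and Lamtor4 had log2 ratios of 0.18 (-0.03 to 0.39) and 0.41 (0.13 to 0.69). The other listed Ragulator genes lay on both sides of 0, from -0.24 to 0.23. Axin1, a scaffold that brings LKB1 to AMPK at the lysosome, had -0.07 (-0.24 to 0.09).

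Genes of AMPK substrates held the 3 calls in the pathway. Of 28 measured, 2 were higher and 1 lower, beside 2.51% higher and 1.91% lower among all measured genes, and the median log2 ratio was -0.09. Acacb encodes acetyl-CoA carboxylase 2, which AMPK inhibits and whose malonyl-CoA restrains fatty acid entry into mitochondria. It had 568 reads in the fasted and 59 in the fed library, a log2 ratio of 3.76 (3.38 to 4.18). Lipe, the gene of hormone-sensitive lipase, had 157 reads in the fasted and 97 in the fed library, a log2 ratio of 1.19 (0.82 to 1.57). Both of these higher genes belong to lipid metabolism, in the library that also had more enterocyte marker RNA. Pfkfb3, the gene of a glycolytic activator, had 11 reads in the fasted and 32 in the fed library, a log2 ratio of -1.04 (-2.18 to -0.02), and the call ended under upper-quartile factors (-1.02, -2.16 to 0.0068) and after length correction (-0.96). The most abundant substrate gene was Txnip, which restrains glucose uptake, at 641 TPM in the fasted and 611 TPM in the fed library, with a log2 ratio of 0.16 (0.10 to 0.23). Zdhhc13, a palmitoyltransferase gene, had 0.25 (0.08 to 0.43). Srebf1, the gene of the lipogenic factor SREBP1, had 539 reads in the fasted and 1021 in the fed library, a log2 ratio of -0.42 (-0.58 to -0.27). Of all 58 measured genes in the lists around AMPK, 55 were not called, a share of calls near the 4.42% of all measured genes, and 53 had an absolute log2 ratio under 0.5.

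**Figure D5:**
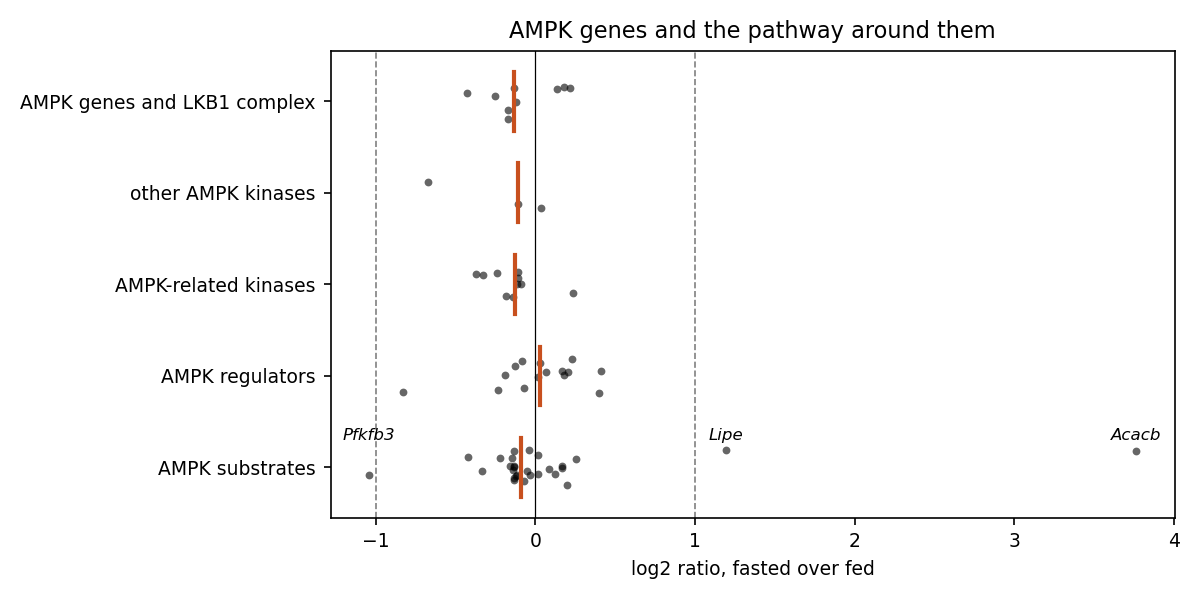
Log2 ratio of fasted over fed for each measured gene (points) of the AMPK and LKB1 complex, other AMPK kinases, AMPK-related kinases, AMPK regulators and AMPK substrates, with the list median as an orange bar and 2-fold as dashed lines. The 3 genes past the threshold, Acacb, Lipe and Pfkfb3, are substrate genes, and all others lie between the dashed lines.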

How the data were processed

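RNA was measured in 1 fasted and 1 fed library, each prepared, per the labels' protocols, from 1 ug of total RNA by Illumina's TruSeq RNA kit. The authors deposited whole-number counts per Ensembl gene, not normalised. FastQC, STAR, HTSeq and DESeq, and the builds GRCm38 and mm10, are named per the submitters' processing notes; these give no versions or roles, and the annotation and strand setting are not stated. A second deposited table holds a signal, the counts divided by 1 factor per library (0.842 fasted, 1.19 fed): these factors gave back its values within 0.01 in 100% of cases.

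Of 45706 IDs, 45143 matched GENCODE M21 (GRCm38), which supplied symbols, lengths, positions and transcripts. Median-of-ratios size factors, Clopper-Pearson intervals for ratios and shares, conditional odds ratios for isoform shifts and Poisson intervals for levels were computed with Python 3.11.15 and scipy 1.17.1, and TMM factors with edgeR 4.0.16. Intervals cover counting error only. No count model was fitted, since there was 1 library per group. Ratios and calls were tested on simulated data that held counting error only. Such data cannot speak to the spread between libraries of the same group. The genes named from the lists around AMPK are those past 2-fold and the 3 of highest TPM in each list, plus paralogs. Sesn3 and Acaca are exceptions, named after their values were seen. Genes and lists were chosen with earlier results of these data known.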

Additional observations from a re-analysis of the deposited data

How the results depend on the processing

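TMM, total-count and upper-quartile factors, the deposited normalised values and a correction for exon length were tried. All 45 alternative log2 ratios of the 9 genes stayed inside their intervals, with 0 signs turned and a largest shift of 0.10. The deposited values are the same counts over the same size factors, so they repeat the main result. TMM, total-count and upper-quartile factors moved every gene alike, by 0.0017, -0.021 and 0.024. Such shifts were too small to turn a sign or leave an interval here. Only the length correction moved genes by different amounts. No gene of the 9 was called under these alternatives or at 1.5-fold, where 10.2% of measured genes were. The interval of Prkab1 excluded 0 under upper-quartile factors (0.20, 0.01 to 0.40), and that of Prkaa2 after length correction (0.31, 0.06 to 0.55). The 302 higher and 230 lower measured genes became 176 higher and 111 lower at 5 CPM, 614 higher and 607 lower at 1.5-fold, and 124 higher and 88 lower at 3-fold, as such thresholds must. Of the genes around AMPK, 2 were higher and 1 lower, which became 1 higher and 0 lower at 3-fold. The lower count was 0 under upper-quartile factors, after length correction and at 5 CPM, and 2 at 1.5-fold, where Sesn3, chosen after its values were seen, joined.

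Gene length moved the isoform shares. By longest transcript, Prkab1 took 92.7% fasted and 91.2% fed, and Prkag1 59.6% in both. By coding length, Prkaa1 took 57.6% fasted and 63.4% fed, Prkab1 84.2% fasted and 81.3% fed, and Prkag1 55.7% in both. By median coding transcript, Prkab1 took 92.8% fasted and 91.3% fed, and Prkag1 58.2% in both. Without length, Prkaa1 took 57.9% fasted and 63.7% fed, Prkab1 84.2% fasted and 81.2% fed, and Prkag1 42.3% in both. Exon length without bases shared with other genes, with all reads kept, gave Prkag1 76.8% in both. This alternative was chosen after seeing the data. Class sums by longest transcript were 53.4 TPM fasted and 58.6 TPM fed for α, 105 fasted and 100.2 fed for β, and 77.8 fasted and 93.6 fed for γ. By coding length they were 82.2 fasted and 87.3 fed for α and 135 fasted and 132 fed for β. By median coding transcript they were 32.6 fasted and 35.4 fed for α, 64.5 fasted and 61.1 fed for β, and 98.4 fasted and 117 fed for γ. By unshared exon length they were 51.7 fasted and 58.6 fed for α, 71.1 fasted and 70.9 fed for β, and 78.8 fasted and 97.9 fed for γ. Counts without length give sums in CPM in place of TPM, which were 118 fasted and 120 fed for α, 94.4 fasted and 87.6 fed for β, and 71.1 fasted and 81.3 fed for γ. No paired analysis was possible because each group has 1 library.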

Other observations

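The acetyl-CoA carboxylase genes, a pair of AMPK substrate genes looked at together after their values were seen, had a different leading isoform in the 2 libraries. Acacb, the gene of the mitochondrial form, made up 90.5% of their transcripts per merged exon length in the fasted library (88.5% to 92.2%) and 38.9% in the fed library (31.8% to 46.3%). Acaca, the gene of the cytosolic form that feeds fatty acid synthesis, had 106 reads in the fasted and 164 in the fed library, a log2 ratio of -0.13 (-0.50 to 0.23). The log2 difference in the ratio of Acacb to Acaca was 3.90 (3.35 to 4.45, counting error only), and gene length does not enter it. The share within a library does depend on length, and by the median coding transcript Acacb made up 36.0% in the fasted and 3.63% in the fed library. Enterocyte markers were also higher in the fasted library, and their part in this difference was not tested.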
